A study of Homo sapiens with 10 samples.

Results

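Genomic imprinting marks a gene according to the parent that passed it on, so that the RNA comes mainly from a single parental allele. The marks are DNA methylation at control regions of gene clusters, set in the germ line and kept by the zinc finger protein ZFP57 with its partners while the early embryo is demethylated. Many imprinted genes regulate fetal and placental growth, and their levels usually shift when pluripotent cells enter a lineage.

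Levels of 10 imprinted growth regulators were read by gene symbol from the 3 deposited FPKM tables, which together hold 27492 symbols. FPKM counts sequenced fragments relative to the length of the transcript and the depth of the library. The genes are DLK1, PEG3, PEG10, MEST, PLAGL1, NDN and SNRPN, known as paternally expressed, and CDKN1C, PHLDA2 and GRB10, known as maternally expressed, GRB10 in some tissues only. All 10 were in each table, and 9 were above 0 FPKM. The files do not separate the parental alleles, so imprinting itself was not measured.

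RNA came from H9, an established human embryonic stem cell (hESC) line, carrying an LTR7-GFP reporter. The groups were primed hESCs kept for 12 days in 10 mM crotonate, untreated primed hESCs, extended pluripotent stem (hEPS) cells kept for 12 days in 10 mM crotonate, untreated hEPS cells, and endodermal cells made by exposing the reporter line to BMP4 plus Activin A. By the paper's methods, the endodermal medium also held CHIR99021 at the start of the differentiation. Crotonate is a short-chain fatty acid that raises lysine crotonylation of proteins. The hEPS cells were converted in LCDM medium on mouse feeder cells and taken off them by adherence to the dish. The labels give 2 samples per group, but the tables hold 1 value per gene and group, so neither an SD nor a p-value can be given and each difference lacks a replicate check.

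The 5 columns summed to between 369750 and 610417 FPKM, and no library totals came with them. In primed hESCs, crotonate-treated cells had 0.420 FPKM of the pluripotency gene POU5F1 and 1415 FPKM of the fibrillar collagen COL3A1, against 827 FPKM of POU5F1 and a listed 0 of COL3A1 in untreated cells. Of 5 pluripotency markers, 2 reached 1 FPKM with crotonate and 5 without, with sums of 156.9 and 1624 FPKM. The 2 were LIN28A, at 115 FPKM against 387 FPKM, and DPPA4, at 41.3 FPKM against 241 FPKM. Of 8 endoderm markers, 7 reached 1 FPKM in crotonate-treated primed hESCs, against 2 in untreated ones. The 8 summed to 224 FPKM with crotonate and 4.05 FPKM without. GATA4, at 123 FPKM against 0.0482 FPKM, and CXCR4, at 65.4 FPKM against 2.08 FPKM, made up most of the sum with crotonate. SOX17 and FOXA2 had 3.97 and 1.85 FPKM with crotonate and a listed 0 without. CER1 went the other way, with 0.342 FPKM with crotonate and 1.59 FPKM without. In hEPS cells, crotonate-treated cells had 261 FPKM of POU5F1 and 191 FPKM of the endoderm factor SOX17, against 461 and 29.2 FPKM in untreated cells. The 5 pluripotency markers of hEPS cells summed to 710.5 FPKM with crotonate and 1223 FPKM without. Of these 5, NANOG alone was higher with crotonate, at 25.1 FPKM against 15.3 FPKM. The endodermal cells had 99.9 FPKM of GATA4, but 0.0721 FPKM of SOX17, a listed 0 of FOXA2 and 955 FPKM of COL3A1. Of the 8 endoderm markers 3 reached 1 FPKM in endodermal cells, and the 8 summed to 139 FPKM. The defining endoderm factors SOX17 and FOXA2 were thus nearly absent from the column labelled endodermal.

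In primed hESCs, crotonate went with higher RNA of most of these genes. A change is the difference of log2(FPKM + 1), which understates the change of low genes, and a call of higher or lower needs 2-fold or more on this scale, in a gene that reaches 1 FPKM with or without crotonate. By this rule DLK1, CDKN1C, PHLDA2, MEST, PLAGL1, NDN and SNRPN were called higher. These are 7 of the 9 measured genes, while 13.9% of the 13210 genes measured in that table were called higher. GRB10 was the 1 gene called lower, while 12.7% of all measured genes were called lower. PEG10 was called neither, and PEG3 was not measured at this filter. DLK1 and PLAGL1 passed the filter through the crotonate column alone, so there they could only have risen. Both are counted in the 7 of 9 and in the median. The median change over the 9 measured genes was 1.64, and that over all measured genes was -0.083. With no filter, and PEG3 then counted, 7 genes were still called higher, beside 9.55% of all genes. The median was then 1.34, beside 0 for all genes.

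In hEPS cells the same treatment gave another picture. PHLDA2 was the 1 gene called higher, beside 8.42% of the 14161 measured genes, and DLK1 and PLAGL1 were the 2 called lower, beside 3.02% of measured genes. The other 6 measured genes were called neither. The median change was -0.079 over the 9 measured genes and -0.092 over all measured genes. Under a rule that asks only for an FPKM ratio above 1.5, primed hESCs had 8 genes higher and 1 lower, beside 25.3% and 28.5% of all genes, and hEPS cells had 2 higher and 3 lower, beside 20.1% and 18.1%. DLK1, PLAGL1, MEST, CDKN1C and NDN, 5 genes, had a positive change in primed hESCs and a negative one in hEPS cells, as did 21.2% of the 12111 genes measured in both. The change of NDN in hEPS cells was -0.079, and it was 0.0024 after quantile normalization and 0.014 relative to the median. Of the other measured genes 3 had positive changes in both, and GRB10 had a negative one in primed hESCs and a positive one in hEPS cells. Whether a change differed between the cell states could not be tested.

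**Figure D1:**
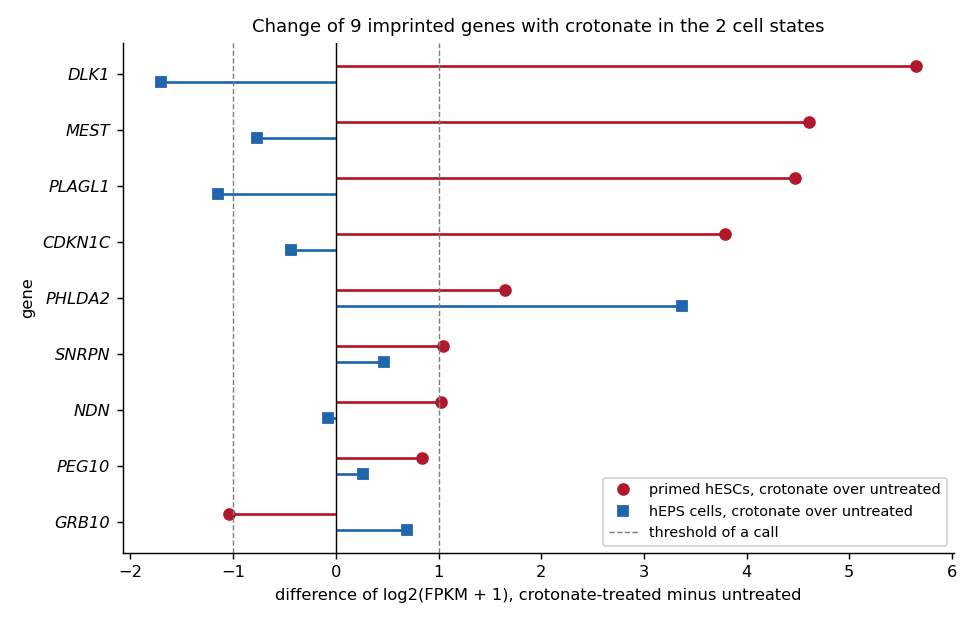
Difference of log2(FPKM + 1), crotonate-treated minus untreated, for the 9 measured genes (rows), with circles for primed hESCs and squares for hEPS cells, 1 value each. Dashed lines mark the 2-fold threshold of a call. DLK1 stands at 5.65 in primed hESCs and -1.71 in hEPS cells, and PHLDA2 is the gene beyond the upper threshold in both.

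DLK1 encodes a membrane protein of the Notch ligand family that holds back fat cell differentiation, and lies at chr14:100725705-100738224 on the plus strand (hg38, GENCODE 44, as are all gene positions here). It stood at 59.2 FPKM in crotonate-treated primed hESCs and 0.199 FPKM in untreated primed hESCs. In hEPS cells it stood at 15.9 FPKM with crotonate and 54.2 FPKM without, and endodermal cells had 9.29 FPKM. DLK1 was thus low in the untreated primed column alone. The FPKM ratio was 298 in primed hESCs, a change of 5.65 on the log2 scale, and 0.294 in hEPS cells, a change of -1.71.

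Most low FPKM values of a table kept the steps of whole reads, so that the smallest whole numbers of reads behind a pair of values could be found. These numbers are lower bounds, since the true ones may be multiples of them. The exact 95% binomial intervals drawn from them cover counting error only and can be too wide. DLK1 rested on at least 7877 reads in crotonate-treated and 30 in untreated primed hESCs, which gives an interval of 208 to 441 for the ratio of 298. In hEPS cells at least 428 and 1923 reads gave an interval of 0.264 to 0.326. Counting error was therefore small beside either change, whereas the error between cultures is unknown.

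PLAGL1, a zinc finger factor that slows the cell cycle and regulates other imprinted genes, lies at chr6:143940300-144064599 on the minus strand. It had 33.9 FPKM in crotonate-treated primed hESCs and 0.577 FPKM in untreated primed hESCs. In hEPS cells it had 7.17 FPKM with crotonate and 17.0 FPKM without, and endodermal cells had 10.1 FPKM. This is the direction DLK1 took in each cell state. The ratio was 58.7 in primed hESCs (counting interval 45.6 to 76.9) and 0.421 in hEPS cells (0.368 to 0.480), with changes of 4.47 and -1.14. On the same strand PLAGL1 overlaps HYMAI, a noncoding gene with no value here, so reads of the pair cannot be told apart where the annotation overlaps.

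MEST, a hydrolase-like protein of the endoplasmic reticulum that is abundant in embryonic mesoderm, lies at chr7:130486171-130506465 on the plus strand. It overlaps MESTIT1 and the end of COPG2 on the other strand, and since the use of strand in the counting is not stated, reads there cannot be told apart. It reached 1030.3 FPKM in crotonate-treated primed hESCs, against 41.4 FPKM in untreated primed hESCs, a ratio of 24.9 and a change of 4.60. In crotonate-treated hEPS cells it had 37.5 FPKM, against 64.7 FPKM in untreated hEPS cells, a ratio of 0.579 (counting interval 0.439 to 0.758) that passed the 1.5 rule but not the calling rule. Endodermal cells had 473 FPKM. MEST was therefore high in the 2 columns with high COL3A1. In crotonate-treated primed hESCs all 7 mesenchyme markers were at 1 FPKM or more and summed to 3170 FPKM, against 2 of 7 and 27.2 FPKM in untreated primed hESCs, where COL3A1 and LUM were at 0. In hEPS cells 4 of 7 and 265 FPKM were found with crotonate, against 5 of 7 and 49.0 FPKM without. COL1A1, a fibroblast collagen too, made up most of this sum, with 244 FPKM with crotonate and 34.6 FPKM without. PDGFRB had 14.1 FPKM with crotonate and 8.001 FPKM without, and TWIST1 4.18 and 1.90 FPKM, while COL3A1 had 1.39 and 2.70 FPKM and LUM 0.275 and 0.0854 FPKM. The fibroblast markers of hEPS cells thus did not move alike. Mouse feeder RNA in the hEPS columns and its part in these levels were not tested. The part of mesenchymal cells in the changes of MEST and the other genes was not tested, and in bulk RNA a change in the number of cells of a type and a change of RNA per cell cannot be told apart.

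CDKN1C, the cyclin-dependent kinase inhibitor p57, lies at chr11:2883213-2885775, and PHLDA2, a small pleckstrin homology protein that restrains placental growth, lies 42.5 kb from it at chr11:2928273-2929420, both on the minus strand of the KCNQ1 imprinted domain. CDKN1C had 82.5 FPKM in crotonate-treated primed hESCs and 5.03 FPKM in untreated primed hESCs. PHLDA2 had 25.4 FPKM with crotonate and 7.45 FPKM without. Both neighbours were called higher, by 3.79 and 1.64 on the log2 scale, with ratios of 16.4 (counting interval 14.6 to 18.5) and 3.40 (2.92 to 3.98).

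In hEPS cells the neighbours parted. PHLDA2 had 58.4 FPKM with crotonate and 4.75 FPKM without, a ratio of 12.3 (counting interval 9.25 to 16.6) and a change of 3.37. CDKN1C had 20.2 FPKM with crotonate and 27.6 FPKM without, a ratio of 0.731 (0.673 to 0.794) that was not called. In endodermal cells PHLDA2 had 46.2 FPKM and CDKN1C 18.9 FPKM. PHLDA2 is known for high levels in trophoblast, and of 7 trophoblast markers 2 were at 1 FPKM or more in crotonate-treated hEPS cells, summing to 11.3 FPKM, against 3 and 7.45 FPKM in untreated hEPS cells. VGLL1, CGA and ELF5 were listed at 0 in both, GATA3 had 8.55 FPKM with crotonate and 2.08 FPKM without, and TFAP2A had 0.341 and 2.67 FPKM. HLA-G had 2.04 FPKM with crotonate and 0.176 FPKM without, and KRT7 had 0.322 and 2.52 FPKM. In endodermal cells 4 of the trophoblast markers reached 1 FPKM, and the 7 summed to 64.9 FPKM, the highest sum of the 5 columns. TFAP2A, at 40.2 FPKM, and GATA3, at 20.1 FPKM, made up most of that endodermal sum. Of the endoderm markers in hEPS cells 8 of 8 were at 1 FPKM or more with crotonate and summed to 2569 FPKM, against 7 of 8 and 156 FPKM without. CER1 made up most of the sum with crotonate, and without CER1 the sums were 607 FPKM with crotonate and 117 FPKM without. The part of trophoblast-like or endoderm-like cells in the change of PHLDA2 was not tested.

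**Figure D2:**
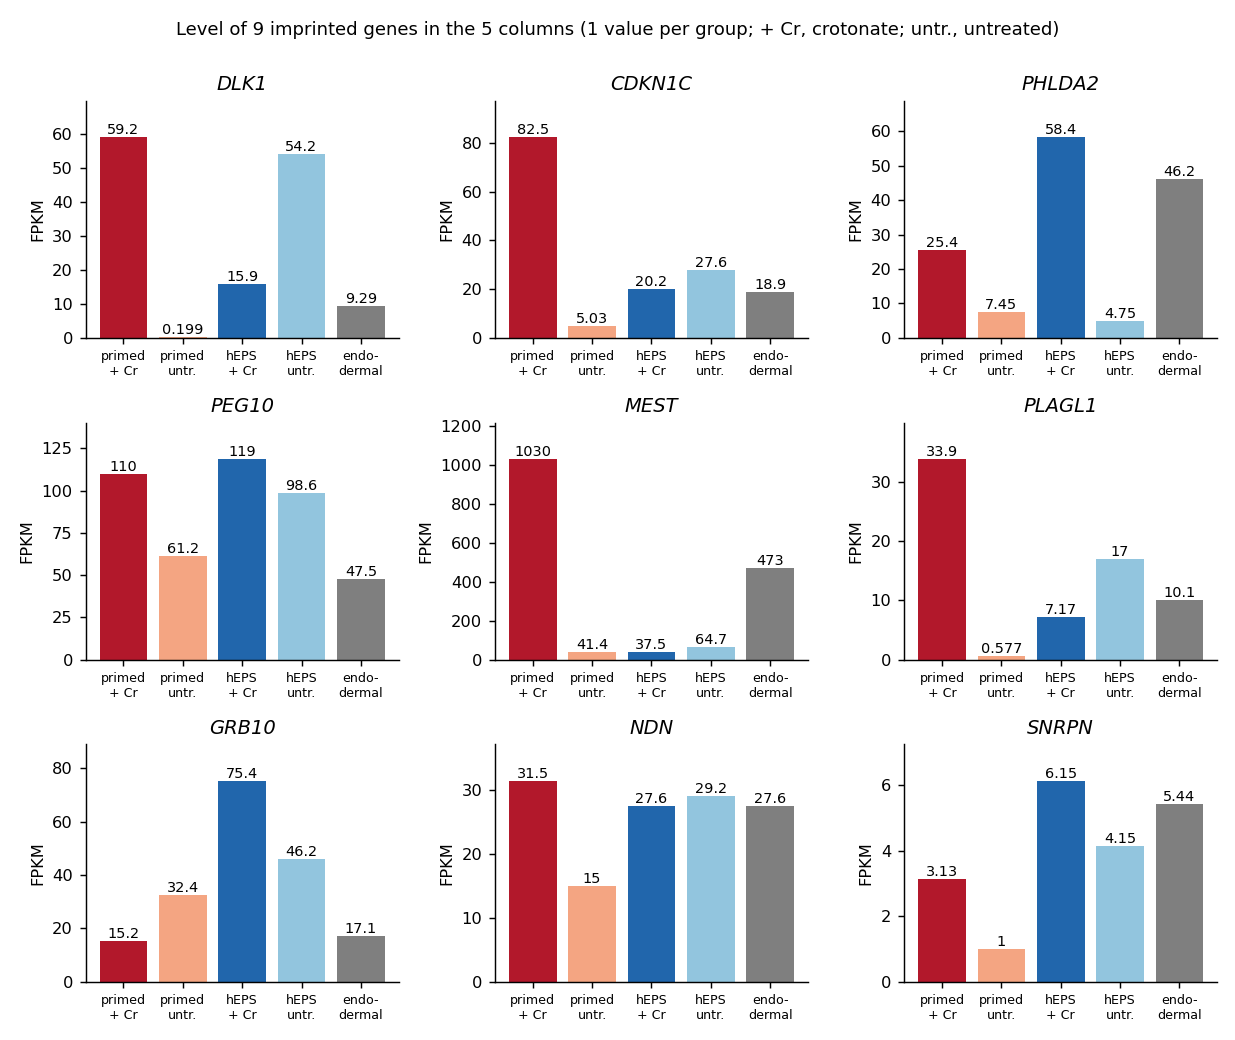
FPKM (y axis, from 0, its own scale in each panel) of 9 genes in the 5 columns, 1 value per group with no error bar, from left to right crotonate-treated and untreated primed hESCs, crotonate-treated and untreated hEPS cells, and endodermal cells. DLK1 and PLAGL1 are near 0 in untreated primed hESCs alone, MEST is high in crotonate-treated primed hESCs and in endodermal cells, and NDN is between 15.0 and 31.5 FPKM throughout.

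GRB10 is an adaptor that binds the insulin and IGF receptors and dampens their signal, and lies at chr7:50590063-50793462 on the minus strand, with a noncoding gene on the other strand inside the same interval. It had 15.2 FPKM in crotonate-treated primed hESCs and 32.4 FPKM in untreated primed hESCs, a ratio of 0.470 (counting interval 0.430 to 0.514). In hEPS cells it had 75.4 FPKM with crotonate and 46.2 FPKM without, a ratio of 1.63 (1.47 to 1.81) that was not called, and endodermal cells had 17.1 FPKM. GRB10 thus ran opposite in sign to DLK1 in either cell state. Its change of -1.04 in primed hESCs was close to the threshold, and the call was lost at -0.96 when changes were taken relative to the median of all genes and at -0.98 under quantile normalization.

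NDN and SNRPN belong to the imprinted region of Prader-Willi syndrome, 1136 kb apart. NDN (necdin), at chr15:23685400-23687305 on the minus strand, binds E2F1 and promotes exit from the cell cycle. It had 31.5 FPKM in crotonate-treated and 15.0 FPKM in untreated primed hESCs, 27.6 and 29.2 FPKM in crotonate-treated and untreated hEPS cells, and 27.6 FPKM in endodermal cells. Except for the untreated primed column these levels were much alike. The ratio was 2.11 in primed hESCs (counting interval 1.59 to 2.81) and 0.945 in hEPS cells (0.881 to 1.01).

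SNRPN, at chr15:24823637-24978723 on the plus strand, encodes a core protein of the splicing machinery. It had 3.13 FPKM in crotonate-treated and 1.002 FPKM in untreated primed hESCs, a ratio of 3.13 (counting interval 2.02 to 4.96). In hEPS cells it had 6.15 FPKM with crotonate and 4.15 FPKM without, a ratio of 1.48 (1.13 to 1.94), and endodermal cells had 5.44 FPKM. By FPKM it was the lowest of the 9 measured genes in every column except that of untreated primed hESCs. Changes of 1.03 for NDN and 1.05 for SNRPN in primed hESCs lay just above the threshold, and under quantile normalization SNRPN stood at 0.96 and lost its call. SNRPN overlaps SNURF, which shares its transcripts, and its protein is close to that of SNRPB, so its reads are uncertain.

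RefSeq promoters (GRCh38.p14) were matched for 5 of the 10 genes, MEST, PLAGL1, GRB10, NDN and SNRPN, with 20 starts in all. The 250 bases before each start were searched on both strands for TGCCGC, the hexamer that ZFP57 binds when methylated, and for GCCATNTT, the YY1 core known from the PEG3 control region. TGCCGC was found before 6 of the 20 starts and GCCATNTT before 1, and 12.7% and 3.86% of 35116 RefSeq promoters held them. Each of the 5 genes had TGCCGC before at least 1 start, GRB10, which was called lower in primed hESCs, among them. Starts of a gene can lie close together and their windows can overlap. Before the start with the most CG dinucleotides of each gene, PLAGL1 had 32 CG, NDN 30, SNRPN 12, GRB10 40 and MEST 20, where the median of all promoters was 11. Apart from NDN, which had 1 start, these are the highest of 4 starts for SNRPN and of 5 for each other gene. The median is over unselected promoters, so the counts do not show these genes to be rich in CG. Before the start with the fewest, PLAGL1 and SNRPN had 1 CG, GRB10 2 and MEST 9. A match is a description of letters and not a site of binding. The sequences below show matches in 3 of the 5 genes, with TGCCGC or its reverse complement in capitals, 5′ to 3′ on the strand of the gene. The first is a stretch of 30 bases at chr6:144008337-144008366 on the minus strand, the second the whole window at chr15:23687306-23687555 on the minus strand, and the third the 198 bases at chr15:24954737-24954934 on the plus strand that precede any annotated exon. The window of SNRPN holds 1 further match, in the forward direction, in the bases not shown.
PLAGL1: ctcttggcTGCCGCggGCGGCAaagcccac
NDN: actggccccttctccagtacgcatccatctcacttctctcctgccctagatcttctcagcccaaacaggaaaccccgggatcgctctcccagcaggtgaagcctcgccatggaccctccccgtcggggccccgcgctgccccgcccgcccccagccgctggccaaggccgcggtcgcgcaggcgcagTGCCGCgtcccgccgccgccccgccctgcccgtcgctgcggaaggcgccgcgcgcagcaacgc
SNRPN: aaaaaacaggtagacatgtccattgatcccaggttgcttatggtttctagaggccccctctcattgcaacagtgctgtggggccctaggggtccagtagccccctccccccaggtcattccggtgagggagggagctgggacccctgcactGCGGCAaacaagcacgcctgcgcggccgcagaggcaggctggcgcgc

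PEG10, a gene derived from a retrotransposon and needed for the placenta in mice, lies at chr7:94656325-94669695 on the plus strand and overlaps the start of SGCE on the other strand by 248 bases, where reads cannot be told apart either. It had 110 FPKM in crotonate-treated and 61.2 FPKM in untreated primed hESCs, and 119 and 98.6 FPKM in crotonate-treated and untreated hEPS cells. Endodermal cells had 47.5 FPKM. PEG10 was abundant everywhere, and its highest column was 2.50 times its lowest. Its ratio of 1.80 in primed hESCs passed the 1.5 rule but not the calling rule, and in hEPS cells the ratio was 1.21. The step of single reads could not be resolved for PEG10, so no counting interval is given.

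PEG3, a zinc finger gene known for effects on growth and maternal behaviour in mice, at chr19:56810077-56840728 on the minus strand, was listed at 0 in all 5 columns, as were 1401 of the 18437 symbols that the 3 tables share. Its neighbours ZIM2 and USP29 were also listed at 0 throughout. PEG3 lies within ZIM2 on the same strand, and whether the counting of overlapping genes bears on these zeros was not tested.

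Ranks within a column allow a look across the tables that does not depend on their scaling, taken over the 18437 shared symbols. In crotonate-treated primed hESCs DLK1 stood above 94.2% of genes, against 25.4% in untreated primed hESCs, 67.8% in crotonate-treated and 89.3% in untreated hEPS cells, and 64.3% in endodermal cells. PLAGL1 stood above 88.6% and 31.7% of genes in crotonate-treated and untreated primed hESCs, 52.5% and 69.1% in crotonate-treated and untreated hEPS cells. Both were thus ranked higher in untreated hEPS cells than in untreated primed hESCs before any treatment. MEST stood above 99.9% of genes in crotonate-treated primed hESCs, 90.6% in untreated primed hESCs, 84.9% and 91.3% in crotonate-treated and untreated hEPS cells, and 99.5% in endodermal cells. By level, DLK1, CDKN1C and NDN had the same order of columns, with crotonate-treated primed hESCs first, then untreated hEPS cells, crotonate-treated hEPS cells, endodermal cells and untreated primed hESCs. Which neighbours in such an order differ beyond the spread of samples cannot be said with 1 value per group, and the tables may have been normalized apart.

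**Figure D3:**
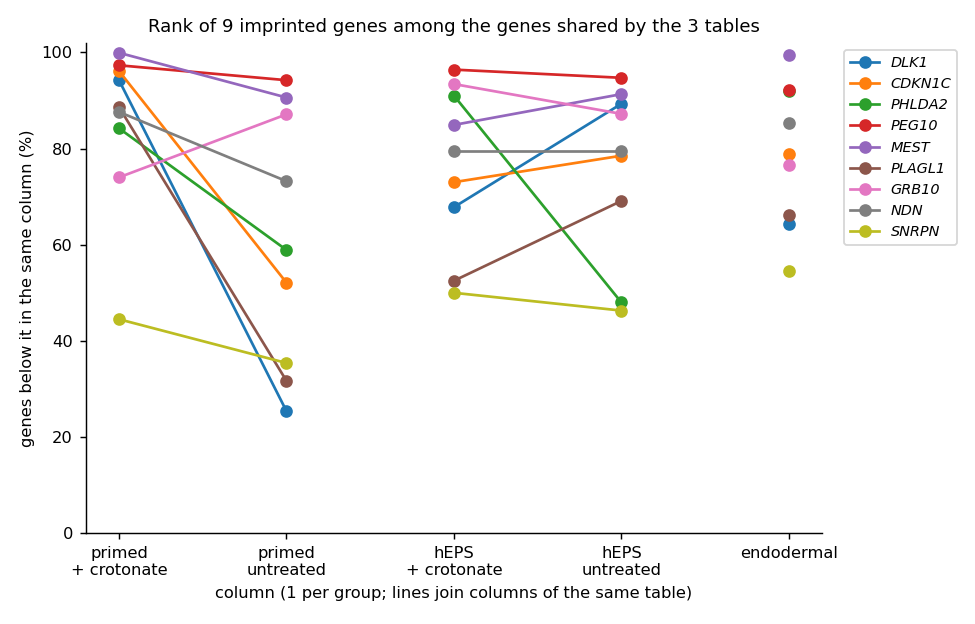
Percent of the shared genes with a lower FPKM in the same column (y axis) for 9 genes, 1 point per column, with lines between the columns of a table. DLK1 and PLAGL1 stand at 94.2% and 88.6% in crotonate-treated primed hESCs, against 25.4% and 31.7% in untreated primed hESCs, and slope the other way in hEPS cells, while PEG10 stays at 92.2% or more in every column.

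The same rule was applied to a list of 55 other imprinted genes, of which 37 were in the table of primed hESCs and 24 were measured there. In primed hESCs 3 were called higher and 3 lower, with a median change of 0.10, and in hEPS cells 3 of 25 measured were called higher and 1 lower, with a median of 0.25. These counts are given beside the shares of all genes above, and the difference from the 10 genes was not tested. The growth factor gene IGF2, on chromosome 11 as CDKN1C is, had 1177 FPKM in crotonate-treated and 2.17 FPKM in untreated primed hESCs, and 29.1 and 13.1 FPKM in crotonate-treated and untreated hEPS cells, with 319 FPKM in endodermal cells. NAP1L5, a nucleosome assembly protein, had 5.00 FPKM in crotonate-treated and 1.21 FPKM in untreated primed hESCs, where the zinc finger gene ZNF331 had 13.9 and 30.3 FPKM. IGF2 and NAP1L5 rose and ZNF331 fell.

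Within the clusters of the 10 genes, neighbours did not all move with the gene next to them. DIO3, the deiodinase that inactivates thyroid hormone and lies 822 kb from DLK1, had 4.02 FPKM in crotonate-treated primed hESCs and was listed at 0 in untreated ones, and it had 16.6 FPKM in crotonate-treated and 3.73 FPKM in untreated hEPS cells. DIO3 was called higher in both, where DLK1 was called lower in hEPS cells. In primed hESCs DIO3 passed the filter through the crotonate column alone, so it could not have been called lower there. In the PEG10 cluster the protease inhibitor TFPI2 had 1.49 and 5.90 FPKM in crotonate-treated and untreated primed hESCs, and 20.9 and 3.61 FPKM in crotonate-treated and untreated hEPS cells, so it was called lower in primed hESCs and higher in hEPS cells. PPP1R9A, which binds actin at synapses, had 0.744 FPKM in crotonate-treated and 3.87 FPKM in untreated primed hESCs and was called lower. It passed the filter through the untreated column alone, so it could not have been called higher there. COPG2, a coat protein subunit whose end overlaps MEST on the other strand by 228 bases, had 20.6 FPKM in crotonate-treated and 46.0 FPKM in untreated hEPS cells and was called lower, while in primed hESCs it had 31.9 and 29.6 FPKM.

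**Figure D4:**
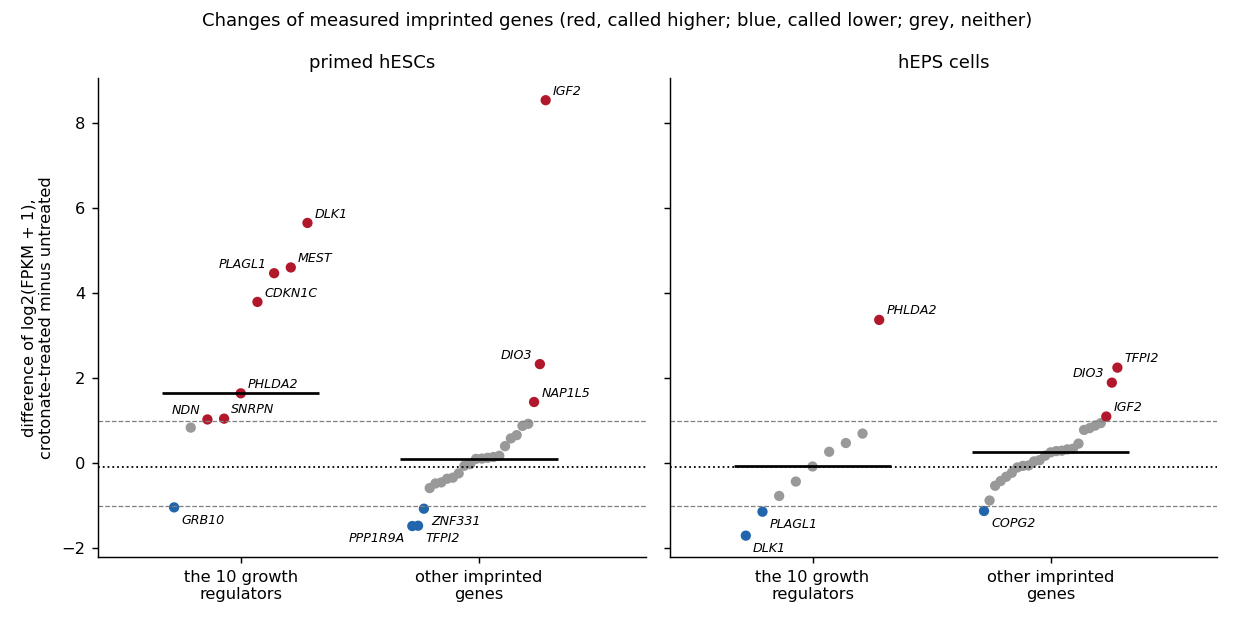
Difference of log2(FPKM + 1), crotonate-treated minus untreated (y axis), of each measured gene among the 10 growth regulators and among the other imprinted genes, for primed hESCs (left) and hEPS cells (right). Solid bars are medians, the dotted line is the median of all measured genes and dashed lines mark 2-fold. Both lists were chosen with earlier results of these data known. The median is 1.64 for the growth regulators and 0.10 for the other imprinted genes in primed hESCs, and IGF2 and DIO3 are called higher in both panels. In primed hESCs DIO3, DLK1 and PLAGL1 passed the filter through the crotonate column alone.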

How the data were processed

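The labels list 10 samples of H9 cells, and the deposited tables hold 5 columns, 1 per group, with 0 other columns of values per sample. By the methods and the submitters' processing notes, oligo(dT)-selected mRNA was sequenced in pairs, mapping to hg38 used TopHat 1.3.2 with Cufflinks 1.1.0, counting used HTSeq 0.6.0 and StringTie 1.3.0, and the authors normalized by TMM in edgeR and converted the values to the FPKM they deposited. The sources used here do not say how 2 samples became 1 column.

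Date-like symbols were dropped (27 per table, 28 for hEPS cells). Changes were taken within a table, with a pseudocount of 1, and no limma fit was possible. The text names all 10 genes, called imprinted genes of their clusters, and the largest 3 called rises and falls of other imprinted genes. The members and lists were chosen with earlier results of these data known. Of low genes (under 0.2 FPKM in each column), 81.3% in the table of primed hESCs and 91.4% in that of hEPS cells had ratios of whole numbers up to 12 times a common factor, within 0.05%. Counting intervals were exact (Clopper-Pearson). The calling rule was run on simulated columns in which 200 well expressed genes were changed 4-fold. That run checks the computation only and says nothing of the spread between cultures or of low genes. Alternatives were another pseudocount, filters, quantile normalization, median centring and an FPKM ratio above 1.5. Computations used Python 3.11.15, pandas 2.3.3 and scipy 1.17.1.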

Additional observations from a re-analysis of the deposited data

Results flagged for a closer look

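DLK1, PLAGL1 and TFPI2 were called in opposite directions in the 2 cell states. The log2 change of DLK1 with crotonate was 5.65 for primed hESCs but -1.71 for hEPS cells, that of PLAGL1 was 4.47 and -1.14, and that of TFPI2 was -1.47 and 2.25. For TFPI2 in primed hESCs the lower bounds were 2 reads with crotonate and 9 without, and the true numbers may be large multiples of these. In untreated hEPS cells 3.61 FPKM of TFPI2 rested on at least 196 reads. The counting interval of its ratio in primed hESCs, 0.026 to 1.22, includes 1. It can be far too wide and says little about counting error there. With 1 value per group the difference between the cell states was not tested, and the columns of the cell states come from separate tables.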

How the results depend on the processing

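Taking changes relative to the median of all genes or after quantile normalization left 0 of the 10 genes called lower in primed hESCs, since GRB10 stood at -0.96 and -0.98. Quantile normalization also ended the call of SNRPN, at 0.96. With at least 5 FPKM the median change in primed hESCs was 2.72, as SNRPN left the genes measured. In hEPS cells the median was -0.039 with no filter, 0.0024 after quantile normalization and 0.014 relative to the median, so its sign is not settled. The ratio of 1.5 gave 2 genes higher in hEPS cells. Of 24 other imprinted genes measured in primed hESCs it gave 7 higher and 6 lower, beside 25.3% and 28.5% of all genes. Of 25 measured in hEPS cells it gave 9 higher and 3 lower, beside 20.1% and 18.1% of all genes. A pseudocount of 0.1 gave 5 other imprinted genes higher in hEPS cells, and 12.3% of all genes. Of 89 values of single genes under the alternatives that kept the 2-fold rule, 86 kept their call and 0 changed a called direction. No paired analysis was possible because the columns carry no replicate, and leaving out each replicate was not run for the same reason. The ratio of 1.5 also called PEG10 higher in primed hESCs, and MEST lower and GRB10 higher in hEPS cells. Read totals are unknown, so no limit of depth could be set for genes listed at 0.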

Other observations

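Genes that keep imprints were read beside the growth regulators. DNMT1, which copies DNA methylation at replication, had 35.1 FPKM in crotonate-treated and 70.0 FPKM in untreated primed hESCs, and TRIM28, the corepressor of ZFP57, had 157 and 284 FPKM. Both passed the 1.5 rule in primed hESCs but not the calling rule, and 28.5% of all measured genes were lower there by the 1.5 rule. UHRF1, also on this list, went the other way in primed hESCs and passed neither rule. It had 24.8 FPKM with crotonate and 21.9 FPKM without, and had no value in hEPS cells. In crotonate-treated hEPS cells DNMT1 had 120 FPKM, against 132 FPKM in untreated hEPS cells. TRIM28 had 434 FPKM with crotonate and 635 FPKM without in hEPS cells, a ratio of 0.683 that passed neither rule. NLRP7, a maternal gene whose loss disturbs maternal imprints of human oocytes, was the 1 gene called among 8 such genes, of which 7 were in the table of hEPS cells and 4 were measured in each comparison. It was called higher in hEPS cells, as were 8.42% of all genes, with 2.08 FPKM with crotonate and 0.167 FPKM without, and passed the filter through the crotonate column alone. In primed hESCs it was under the filter, with 0.0206 FPKM with crotonate and 0.591 FPKM without. ZFP57 itself was under 1 FPKM in all 5 columns, and ZNF445, another zinc finger protein that binds imprinted regions, was between 4.71 and 7.81 FPKM. In primed hESCs ZNF445 had 6.85 FPKM with crotonate and 7.81 FPKM without, which passed neither rule.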
